A study of Homo sapiens with 6 samples.

Results

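The ATF4 and CHOP effectors examined here are 10 genes of the integrated stress response: the transcription factors DDIT3, ATF3, ATF4, CEBPB and CEBPG, and the downstream genes TRIB3, CHAC1, PPP1R15A, DDIT4 and SESN2. They were found by gene symbol in the platform annotation of the arrays, where each of the 10 had 1 probe set, out of 24241 genes measured. The cells were HepG2, an established line from a human liver cancer, grown in RPMI medium. They were given the solvent DMSO (3 arrays) or 0.75 µM verteporfin (3 arrays), and RNA was isolated after 24 hours. Verteporfin is a porphyrin photosensitiser that is also described as blocking the binding of YAP to TEAD factors, and the labels do not state the light exposure. The study used a single cell line, and its labels do not say whether replicate arrays stand for separate cultures. The p-values below therefore refer to the spread among the 6 arrays, part or all of which may be technical.

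In the integrated stress response, kinases that sense different stresses phosphorylate the alpha subunit of the translation factor eIF2. General protein synthesis then falls, while the mRNA of ATF4 is translated better because of short upstream reading frames. ATF4 binds DNA as a dimer with C/EBP family members and activates DDIT3, which encodes CHOP, and genes for amino acid supply, redox balance and feedback control. In liver cells this pathway answers amino acid shortage, oxidative and heme stress, and unfolded protein in the endoplasmic reticulum. The arrays measure mRNA, so the translational step itself was not measured.

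All 10 genes were higher in verteporfin than in DMSO, by 0.68 to 3.28 on the log2 scale of measured signal. PPP1R15A, a phosphatase subunit, and SESN2, a leucine sensor, rose by more than 3, and ATF4 itself by 0.88. DDIT3, ATF3 and CHAC1 had DMSO means below the median signal of the arrays, so their differences are differences of measured signal and not sizes of a change in transcript. Of the 24241 genes tested, 14.3% passed in the upward direction (limma, Benjamini-Hochberg adjusted p under 0.05), 14.3% in the downward direction and 28.5% either way. Of the 12257 genes with a mean over the arrays above the median signal, 26.3% passed upward. The 10 genes and most genes of the pathway lists below are that bright, so the shares over all genes are a low baseline for them. DDIT3, ATF3 and CHAC1 are that bright only because of their verteporfin arrays, so for them this cut depends on the response itself. The same holds for some list genes, such as ALDH1L2 and ERO1B. The median log2 difference of the 10 genes was 2.05, against 0.00488 over all genes. For 8 of the 10 the difference in measured signal passed upward and was at least 2-fold, and both were true of 2.71% of all genes. The verteporfin arrays lay above the DMSO arrays for 10 of 10, against 19.6% of all genes.

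Values are RMA log2 levels, 1 per probe set. The median of all probe sets was 4.83 on every array, and detection calls were not analysed here. The correlation across genes was 0.995 to 0.997 within a treatment and 0.969 to 0.977 between the treatments, where genes are not independent replicates. The 7 measured hepatocyte markers (of 9 listed) lay between 7.89 and 13.5 on all arrays. Of these, AFP, TTR, APOA1, APOB and ALB were lower with verteporfin and FOXA2 was higher, and the list's summed log2 level was 80.0 to 80.4 in DMSO and 71.3 to 72.5 in verteporfin. The part of this shift in the results below was not tested. SERPINA1 did not pass. None of the 5 endothelial markers passed or had a mean above the median signal (summed level 20.1 to 20.5 in DMSO, 19.8 to 20.4 in verteporfin). Of the 6 fibroblast markers, COL1A1 alone was above it and none passed (summed level 26.8 to 27.1 and 26.6 to 26.7). Of the 6 blood markers, LYZ (13.2 in DMSO, 11.9 in verteporfin) and CD79A were above it and PTPRC was not (summed level 34.1 to 34.8 and 32.2 to 32.6). LYZ (-1.33 ± 0.12, adjusted p = 9.66e-05) and the dim CD14 (-0.34 ± 0.07, adjusted p = 0.00616) were lower with verteporfin, and the part of either in the results below was not tested. A bulk level cannot tell more RNA per cell from a larger share of cells that hold the RNA.

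The proximal promoters of the genes are shown because ATF4 and C/EBP dimers are known to bind a composite element, and because related dimers use the cAMP response element or the AP-1 site. Windows of 250 bases before and 50 after each annotated start were taken from RefSeq (GRCh38.p14) for all 10 genes, several starts included. The composite element (TGATGNAA, or TTNCATCA on the other strand) was in the window of 3 of the 10 genes, CHAC1, CEBPG and ATF3, and in 3.75% of the 17287 tested genes with a window. The cAMP response element (TGACGTCA, the same on both strands) was in 1 of the 10, PPP1R15A, and in 2.85% of tested genes. The AP-1 site (TGANTCA, the same on both strands) was in 1 of the 10, DDIT3, and in 8.52% of tested genes. The antioxidant response element (TGACNNNGC, or GCNNNGTCA) was in TRIB3, PPP1R15A and CEBPB and in 17.8% of tested genes, and the ER stress element, searched on both strands, was in 0 of the 10 and 0.116% of tested genes. No match overlapped a match of another motif, and none of the motifs was in the windows of ATF4, DDIT4 and SESN2. A match describes letters in this window only. The stretches around the matches are printed 5′ to 3′ on the strand of the gene, with the matching bases in capitals.
CHAC1, composite element, chr15:40953226-40953305, plus strand: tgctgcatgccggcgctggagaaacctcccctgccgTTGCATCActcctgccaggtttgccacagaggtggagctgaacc
CEBPG, composite element, chr19:33374035-33374112, plus strand: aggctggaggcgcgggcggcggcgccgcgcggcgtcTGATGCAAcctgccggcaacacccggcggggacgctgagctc
ATF3, composite element, chr1:212565180-212565259, plus strand: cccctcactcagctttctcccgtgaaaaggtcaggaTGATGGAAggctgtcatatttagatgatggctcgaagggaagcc
PPP1R15A, cAMP response element, chr19:48872327-48872406, plus strand: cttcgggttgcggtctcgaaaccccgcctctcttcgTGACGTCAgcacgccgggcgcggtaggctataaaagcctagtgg
DDIT3, AP-1 site, chr12:57520713-57520764, minus strand: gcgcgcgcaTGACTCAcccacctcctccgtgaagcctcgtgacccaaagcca
The matches began 209 bases before the annotated start in CHAC1, 42 in CEBPG, 191 before an annotated start of ATF3, 58 in PPP1R15A, and 241 or 238 in DDIT3, depending on the start.

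ATF4 is the activator at the head of the group, and its level rose in all verteporfin arrays. Its log2 levels in the DMSO arrays were 9.54, 9.67 and 9.46, and in the verteporfin arrays 10.6, 10.3 and 10.4. The groups did not overlap, and the lowest verteporfin array lay 0.64 above the highest DMSO array. The difference was 0.88 ± 0.09 (SE from 3 arrays in each group, as in all later values), or 1.84-fold (limma adjusted p = 0.000192). A larger rise than this was seen in 3.44% of all genes.

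DDIT3, the gene of CHOP, a C/EBP-related factor linked to cell death after prolonged stress, went from among the dim probe sets to well above the median signal. Its levels were 4.06, 4.29 and 4.10 in DMSO, all below the median of 4.83, and 7.82, 7.13 and 7.35 in verteporfin. The difference in measured signal was 3.28 ± 0.17 (adjusted p = 7.37e-06).

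ATF3, a stress-induced factor that acts with ATF4 and CHOP and can also repress transcription, was the most uneven gene of the group. Its levels were 4.90, 4.35 and 4.56 in DMSO and 7.23, 5.77 and 7.17 in verteporfin. Verteporfin replicate 2 was far below the other verteporfin arrays, yet 0.87 above the highest DMSO array. The difference in measured signal was 2.12 ± 0.37 (adjusted p = 0.00315), with an SD of 0.822 over the verteporfin arrays. It was 2.59 without verteporfin replicate 2, and the DMSO mean lay below the median signal.

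The C/EBP factors CEBPB and CEBPG, which pair with ATF4 and CHOP on composite elements, were both higher. CEBPB, a regulator of liver gene expression and inflammation, stood at 6.95, 6.77 and 6.75 in DMSO and at 8.96, 8.71 and 8.73 in verteporfin. The arrays within each group lay close together, and the difference was 1.98 ± 0.09, or 3.94-fold (adjusted p = 5.36e-06). CEBPG, a short C/EBP protein without a strong activation domain, stood at 7.95, 7.97 and 7.81 in DMSO and at 9.25, 8.89 and 9.04 in verteporfin. Its groups were 0.92 apart, and the difference was 1.15 ± 0.10, or 2.23-fold (adjusted p = 8.32e-05).

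**Figure D1:**
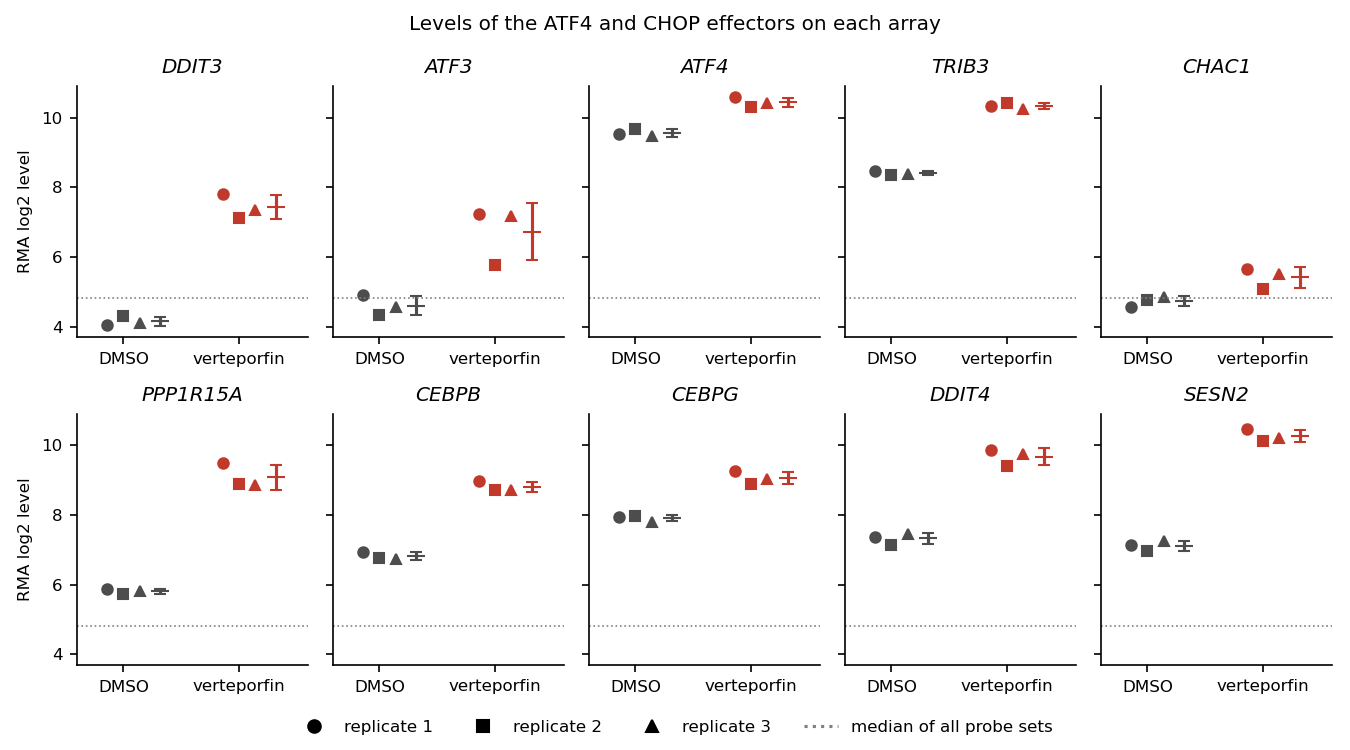
RMA log2 level (y axis) of the 10 genes on each DMSO and verteporfin array, with symbols for the replicates and a bar for the mean ± SD of the 3 arrays. In every panel the verteporfin arrays lie above the DMSO arrays, and DDIT3, ATF3 and CHAC1 have DMSO means below the dotted median of all probe sets (4.83).

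PPP1R15A, also called GADD34, is the stress-induced subunit that directs a phosphatase to eIF2 and so restores translation. Its levels were 5.87, 5.74 and 5.81 in DMSO and 9.50, 8.88 and 8.85 in verteporfin. Every verteporfin array was at least 2.98 above every DMSO array, which was the widest gap between the groups among the 10 genes. The difference was 3.27 ± 0.17, or 9.65-fold (adjusted p = 7.11e-06).

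TRIB3, a pseudokinase that is known to restrain ATF4 and CHOP activity and to bind AKT, had the tightest replicates. It stood at 8.46, 8.37 and 8.39 in DMSO and at 10.3, 10.4 and 10.3 in verteporfin. Its SD was 0.0504 in DMSO and 0.09 in verteporfin, both the smallest of the 10 genes. The difference was 1.93 ± 0.07, or 3.82-fold (adjusted p = 2.03e-06).

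CHAC1, a cytosolic enzyme that breaks down glutathione and is often read as a marker of ATF4 and CHOP activity, had the smallest difference in measured signal. Its levels were 4.57, 4.78 and 4.84 in DMSO and 5.65, 5.08 and 5.51 in verteporfin. The groups did not overlap, but verteporfin replicate 2 was only 0.24 above the highest DMSO array. The difference in measured signal was 0.68 ± 0.15 (adjusted p = 0.00993), and the DMSO mean, 4.73, was under the array median. Its promoter stretch with the composite element is printed above.

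DDIT4 and SESN2 encode inhibitors of the growth kinase complex mTORC1, and both rose. DDIT4, also called REDD1, acts through the TSC proteins, and its levels were 7.38, 7.15 and 7.47 in DMSO and 9.88, 9.41 and 9.74 in verteporfin. The difference was 2.34 ± 0.13, or 5.08-fold (adjusted p = 1.23e-05). SESN2, sestrin 2, binds leucine and holds back GATOR2, an activator of mTORC1. Its levels were 7.14, 6.97 and 7.25 in DMSO and 10.5, 10.1 and 10.2 in verteporfin, a difference of 3.15 ± 0.11, or 8.89-fold (adjusted p = 1.92e-06). Among the genes whose signal lay above the median in both groups, PPP1R15A and SESN2 thus had the largest differences of the group.

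Of the 7 genes whose DMSO mean lay above the median signal, PPP1R15A had the largest log2 difference, followed by SESN2, DDIT4, CEBPB, TRIB3, CEBPG and ATF4. Neighbours in this order are described by the change of one minus that of the other, with no test, since the order was taken from the same values. PPP1R15A and SESN2 (0.12 ± 0.13) and CEBPB and TRIB3 (0.05 ± 0.11) did not differ beyond the spread of their per-array ratios. The change of SESN2 exceeded that of DDIT4 by 0.81 ± 0.07, and the change of TRIB3 exceeded that of CEBPG by 0.78 ± 0.15. The change of CEBPG exceeded that of ATF4 by 0.27 ± 0.04. In each of these the ratios did not overlap between the groups. DDIT3, ATF3 and CHAC1 were given no place in the order because of their dim DMSO signal.

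The 3 verteporfin arrays did not show the response to the same extent. Verteporfin replicate 1 was the highest of them for 9 of the 10 genes (TRIB3 being the exception), and replicate 2 was the lowest for 8 (all but TRIB3 and PPP1R15A). Their median difference from the DMSO mean over the 10 genes was 2.34 in replicate 1, 1.96 in replicate 2 and 2.16 in replicate 3. The same order held for the 3460 genes that passed in the upward direction, of which 57.7% were highest in replicate 1 and 55.2% lowest in replicate 2, with medians of 0.62, 0.52 and 0.57. Among the 3456 genes that passed downward, 48.9% were lowest in replicate 1. The span over the verteporfin arrays was widest in ATF3 (1.45), DDIT3 (0.69) and PPP1R15A (0.65) and narrowest in TRIB3 (0.18). The cause was not tested.

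**Figure D2:**
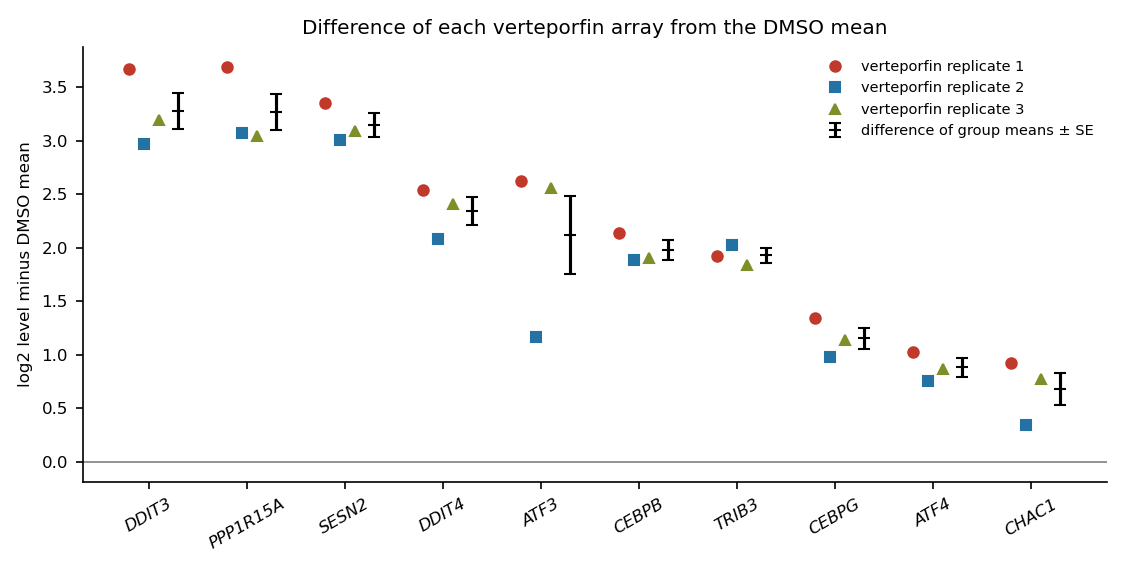
Log2 level of each verteporfin array minus the DMSO mean (y axis) for the 10 genes (x axis), ordered by the difference of the group means, which is drawn in black ± SE. Replicate 1 is highest in 9 of the 10 genes, and replicate 2 of ATF3 (1.17) lies apart from replicates 1 and 3 (2.62 and 2.56).

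Paralogues or close relatives of the 10 genes were compared with them. Of 11 relatives measured, TRIB1 and PPP1R15B were higher, CEBPA, TRIB2, CHAC2, SESN1 and SESN3 were lower, and CEBPD, ATF5, JDP2 and DDIT4L did not pass. Of all genes, 28.5% passed either way, and of those with a mean above the median signal, as most relatives had, 26.3% passed upward alone. The number of relatives called is therefore not read as a result. The change of an effector minus that of its relative was compared over 17 pairs by the per-array log2 ratio with an exact two-sided permutation test. In all 17 the ratios of the verteporfin arrays lay apart from those of the DMSO arrays. Each p was 0.1, also after adjustment over the pairs, which is the smallest this design allows. Of single genes, 39.1% had groups that did not overlap in either direction, and no such share was computed for ratios of other gene pairs. Every pair holds an effector that was itself higher, and several genes recur, so the pairs are not independent and their number is not read as a result. Where DDIT3, ATF3, CHAC1, SESN3 or DDIT4L is in a pair, the value is a difference of measured signal, with a DMSO mean below the median signal on at least 1 side, and not a size of a difference in transcript.

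Among the sestrins, SESN2 rose by 3.15, whereas SESN1 fell by 1.20 on the log2 scale (± 0.09, adjusted p = 3.45e-05). SESN1 went from 8.60, 8.66 and 8.68 in DMSO to 7.28, 7.58 and 7.47 in verteporfin. SESN3, which FOXO factors are known to regulate, changed by -0.67 ± 0.13 in measured signal (adjusted p = 0.00625), with both group means below the median signal. The change of SESN2 exceeded that of SESN1 by 4.36 ± 0.21 and that of SESN3 by 3.82 ± 0.10 (p = 0.1 for each, exact permutation).

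The C/EBP factors did not move together. CEBPA, which maintains hepatocyte differentiation, stood at 8.86, 8.92 and 8.85 in DMSO and at 8.04, 8.24 and 7.82 in verteporfin, a change of -0.85 ± 0.10 (adjusted p = 0.000530). CEBPD, an acute phase C/EBP factor, changed by 0.07 ± 0.09 and did not pass (adjusted p = 0.706). The change of CEBPB exceeded that of CEBPA by 2.82 ± 0.16, that of CEBPD by 1.91 ± 0.20 and that of CEBPG by 0.82 ± 0.07 (p = 0.1 for each, exact permutation). The measured signal of DDIT3, dim in DMSO, changed by more than that of CEBPA by 4.12 ± 0.27, ATF4 by 2.40 ± 0.13, CEBPG by 2.12 ± 0.12, CEBPB by 1.30 ± 0.18 and ATF3 by 1.16 ± 0.41 (p = 0.1 for each, exact permutation).

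Among the ATF relatives, ATF5, itself described as an ATF4 target with upstream reading frames like those of ATF4, was at 6.79, 6.78 and 6.52 in DMSO and at 6.65, 6.51 and 6.64 in verteporfin. These groups overlapped, and the change of -0.10 ± 0.09 did not pass (adjusted p = 0.536). The change of ATF4 exceeded that of ATF5 by 0.98 ± 0.07 (p = 0.1, exact permutation). JDP2, the closest relative of ATF3, changed by 0.13 ± 0.12 and did not pass (adjusted p = 0.531). The change in measured signal of ATF3 exceeded that of JDP2 by 1.99 ± 0.52 (p = 0.1, exact permutation).

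The Tribbles pseudokinases did not move together either. TRIB1, which binds the ligase COP1 and marks C/EBP alpha for degradation, rose from 9.10, 9.08 and 9.23 to 10.4, 10.3 and 10.3 (1.17 ± 0.07, adjusted p = 1.27e-05). TRIB2, which acts on C/EBP alpha in the same way, fell from 6.57, 6.78 and 6.62 to 5.20, 5.71 and 4.80 (-1.42 ± 0.20, adjusted p = 0.00117). The change of TRIB3 exceeded that of TRIB1 by 0.76 ± 0.07 and that of TRIB2 by 3.36 ± 0.23 (p = 0.1 for each, exact permutation).

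The remaining pairs differed in the same direction. PPP1R15B, the constitutive counterpart of PPP1R15A, rose by 0.90 ± 0.08 (adjusted p = 7.66e-05), from 9.22, 9.33 and 9.28 to 10.3, 10.1 and 10.2. The change of PPP1R15A exceeded that of PPP1R15B by 2.37 ± 0.18 (p = 0.1, exact permutation). CHAC2, a slower enzyme of the same glutathione reaction, fell by 0.46 ± 0.09 (adjusted p = 0.00734). The change in measured signal of CHAC1 exceeded that of CHAC2 by 1.14 ± 0.25 (p = 0.1, exact permutation), while the level of CHAC1 stayed below that of CHAC2 in both groups. DDIT4L changed by 0.04 ± 0.09 (adjusted p = 0.824) at means of 4.17 in DMSO and 4.21 in verteporfin, below the median signal. The change of DDIT4 exceeded that of DDIT4L by 2.30 ± 0.21 (p = 0.1, exact permutation).

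**Figure D3:**
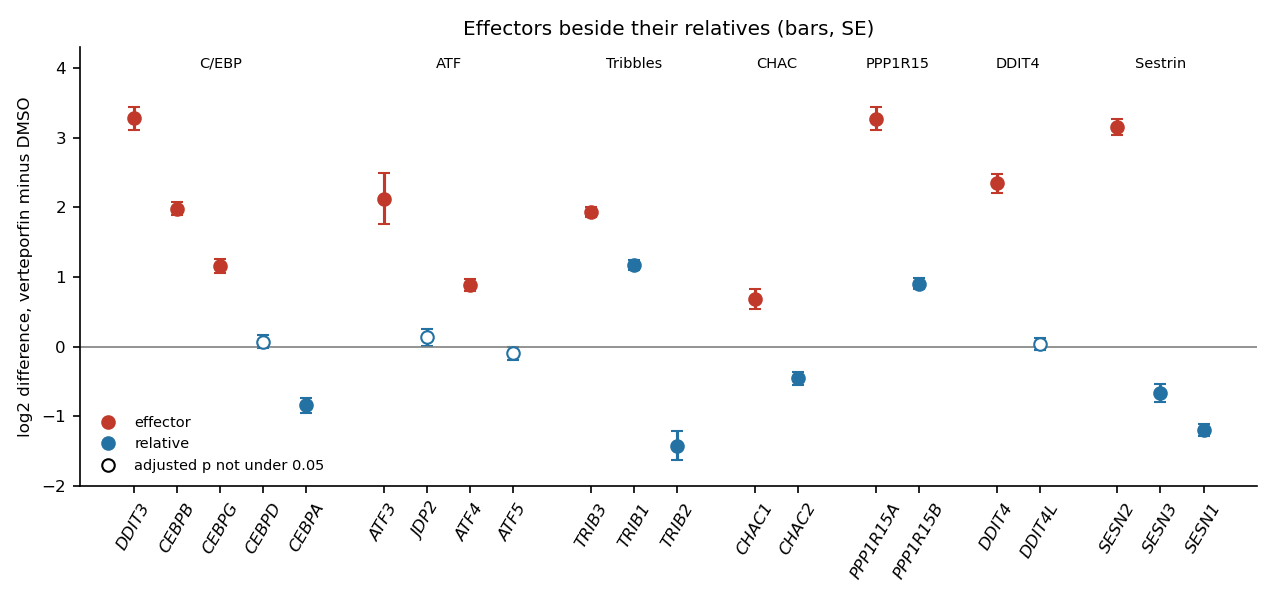
Log2 difference between verteporfin and DMSO ± SE (y axis) of the 10 effectors in red and their relatives in blue, by family, with open circles where the adjusted p was not under 0.05. The effectors lie between 0.68 and 3.28, and of the relatives only TRIB1 (1.17) and PPP1R15B (0.90) passed in the upward direction.

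The steps upstream of ATF4 were described with 26 genes of eIF2, its kinases, its exchange factor eIF2B and their regulators. Of these, 8 were higher, 7 lower and 11 did not pass, and 57.7% were called in either direction against 28.5% of all genes. All genes include the dim ones, whereas 25 of the 26 had a mean above the median signal. Among all genes that bright 26.3% passed upward, so the called share is not read as a result about this list. EIF2AK3, the kinase PERK of the endoplasmic reticulum, rose by 1.51 ± 0.10 (adjusted p = 2.53e-05). DNAJC3, a chaperone also known as an inhibitor of eIF2 kinases, rose by 1.29 ± 0.06 (adjusted p = 6.59e-06), and the phosphatase catalytic subunit PPP1CC fell by 0.74 ± 0.06 (adjusted p = 6.06e-05). The other 3 kinases are named after their values were seen. EIF2AK1, the heme-regulated kinase HRI, changed by -0.63 ± 0.06 (adjusted p = 0.000157), and EIF2AK4, the amino acid sensor GCN2, by -0.68 ± 0.07 (adjusted p = 0.000207). EIF2AK2, the double-stranded RNA sensor PKR, was at 0.16 ± 0.06 and did not pass (adjusted p = 0.0911). Phosphorylation of eIF2, on which these kinases act, was not measured.

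The lists around ATF4 and CHOP targets had more genes higher than lower, with exceptions in each. The tRNA synthetase list takes in the gene family and not only described targets, and the CHOP list also holds death genes. Nearly all genes of these lists had a mean over the 6 arrays above the median signal, and 26.3% of all genes that bright passed upward. Some, such as ALDH1L2 and ERO1B, had it only because of their verteporfin arrays. Of 16 genes of amino acid synthesis and transport, 11 were higher and 5 lower, with a median of 1.01, against 14.3% of all genes in each direction. ALDH1L2, a mitochondrial folate enzyme, had a difference in measured signal of 3.96 ± 0.11, and its DMSO mean was dim at 3.76. Asparagine synthetase ASNS (2.05 ± 0.07), the cystine carrier SLC7A11 (2.40 ± 0.09) and its partner SLC3A2 (1.64 ± 0.08) rose. The 5 that were lower, named after their values were seen, included PSPH (-1.03 ± 0.09), PHGDH (-0.32 ± 0.07) and PSAT1 (-0.26 ± 0.06), which form the serine synthesis pathway, with the carriers SLC1A4 (-0.77 ± 0.07) and SLC7A5 (-0.19 ± 0.06), and 3 of the list were lower without DMSO replicate 3. Of 20 cytosolic tRNA synthetase and tRNA export genes, 12 were higher and 1 lower, with a median of 0.31, against the same 14.3% in each direction. WARS1 (2.29 ± 0.06), SARS1 (1.40 ± 0.09), AARS1 (0.85 ± 0.06) and CARS1 (1.17 ± 0.08) had the smallest p. The 1 lower gene was QARS1 (-0.50 ± 0.07), named after its value was seen.

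Of 16 other described ATF4 targets, 11 were higher and 0 lower, with a median of 0.70, against 14.3% of all genes in each direction. WIPI1 (2.29 ± 0.08) and ATG12 (0.80 ± 0.06), which act in autophagosome formation, the autophagy receptor SQSTM1 (1.38 ± 0.07) and the secreted factor GDF15 (1.65 ± 0.06) rose. Those that did not pass were ATF5, JDP2, NARS1, MAP1LC3B and the liver hormone FGF21 (0.11 ± 0.07, adjusted p = 0.341), the last 3 named after their values were seen. Of 12 described CHOP targets and death genes, 7 were higher and 2 lower, with a median of 0.77, against the same 14.3%. ERO1B, an oxidase of the endoplasmic reticulum, had a difference in measured signal of 3.54 ± 0.08 with a dim DMSO mean of 4.13, and ERO1A, its relative and a described CHOP target, fell by 0.42 ± 0.08 (adjusted p = 0.00551). PMAIP1 (1.91 ± 0.12), which promotes apoptosis, MCL1 (1.16 ± 0.07), which opposes it, and GADD45A (0.84 ± 0.06) rose. The other lower gene was the death activator BCL2L11 (-0.35 ± 0.09), named like ERO1A after its value was seen, and without DMSO replicate 1 the list had 1 lower gene.

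DDIT4 and SESN2 act on mTORC1, and of 39 other measured genes of that complex and its amino acid sensing branch, 10 were higher, 7 lower and 22 did not pass, with a median of 0.03. The called share was 43.6%, against 28.5% of all genes. Of the 39, 34 had a mean above the median signal, and among all genes that bright 26.3% passed upward. The called share is therefore not read as a result about this list. EIF4EBP1, a translation repressor that mTORC1 inactivates and a described ATF4 target, rose by 0.82 ± 0.07 (adjusted p = 7.97e-05), while its relative EIF4EBP2 changed by -0.56 ± 0.07 (adjusted p = 0.000530). RRAGC, a GTPase that carries mTORC1 to the lysosome, rose by 0.71 ± 0.07 (adjusted p = 0.000119). CHAC1 consumes glutathione, and of 12 genes of glutathione synthesis and breakdown 4 were higher and 5 lower, with a median of -0.07, against 14.3% of all genes in each direction. All 12 had a mean above the median signal, where the upward share was 26.3%. The synthesis enzyme subunits GCLC (1.96 ± 0.07) and GCLM (2.10 ± 0.09) rose with SLC7A11, and the surface peptidase ANPEP fell (-1.90 ± 0.09).

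The 5 transcription factors of the group belong to the bZIP superfamily, of which 43 other members were measured. Of these, 15 were higher, 9 lower and 19 did not pass, a called share of 55.8% against 28.5% of all genes, with a median of 0.07. Of the 43, 35 had a mean above the median signal, and 26.3% of all genes that bright passed in the upward direction alone. The called share is therefore not read as a result about this list. The AP-1 subunits FOSL1 (1.92 ± 0.10) and JUNB (1.21 ± 0.08) and the membrane-bound CREB3 (1.74 ± 0.10) rose, and NFE2L3 fell (-1.75 ± 0.08). The other branches of the unfolded protein response, those of IRE1 and ATF6, had 16 of 21 genes higher and 1 lower, with a median of 1.29, against 14.3% of all genes in each direction. DNAJB9 (3.54 ± 0.14), HERPUD1 (2.52 ± 0.10), MANF (1.92 ± 0.08) and HYOU1 (1.72 ± 0.06) rose and had the smallest p of that list. The factor XBP1 was the 1 lower gene (-0.54 ± 0.07), named after its value was seen. Its value is 1 level per gene, so transcript forms of XBP1 were not told apart. The lists overlap, since DNAJC3 is also counted with the eIF2 regulators and ATF6 and XBP1 with the bZIP genes. Of the other described ATF4 targets, ATF5 and JDP2 are also counted with the bZIP genes. NARS1 is also counted with the tRNA synthetases and EIF4EBP1 with the mTORC1 genes. SLC7A11 is in both the amino acid and the glutathione list.

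**Figure D4:**
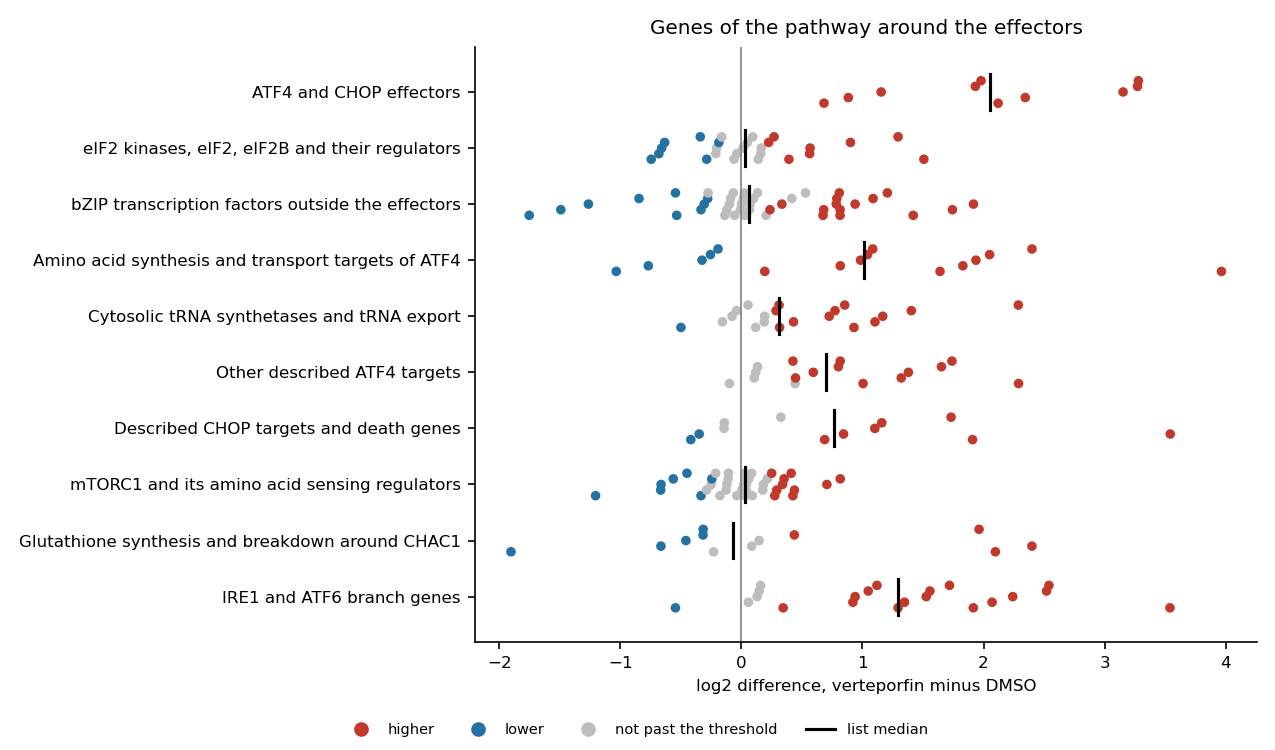
Log2 difference between verteporfin and DMSO (x axis) of each measured gene in the effector group and in 9 lists of pathway genes (rows), coloured by whether it passed upward, passed downward or did not pass, with the list median as a bar. The medians are 2.05 for the effectors, 1.29 for the IRE1 and ATF6 branch genes and 0.03 for the eIF2 and the mTORC1 genes.

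The genes whose 6-array profiles were nearest to those of 3 effectors were found by the root mean square difference of gene-centred log2 levels over the 6 arrays, which mostly reflects the size of the group difference. Nearest to DDIT3 were the Schlafen family gene SLFN5 (0.0897), the MAX-binding repressor MXD1 (0.128) and PPP1R15A (0.130). Nearest to SESN2 were the GTP-binding protein gene GTPBP2 (0.0992), SLFN5 (0.121) and the phosphatase DUSP1 (0.126). Nearest to ATF4 were FOXQ1 (0.0294), IKZF5 (0.0369) and VIPAS39 (0.0412).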

How the data were processed

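Per the labels' protocols, biotinylated cRNA from total RNA was hybridised to Affymetrix arrays. The submitters' processing notes name RMA, and the deposited values by the authors are taken as log2 levels from their range (3.17 to 13.8). No source used here gives the RMA version, the probe set definitions or the genome build. The sorted values were equal on the 6 arrays, so changes are relative to each array's distribution. Of 25582 probe sets, 24244 had 1 gene symbol in the platform annotation, 0 had several and 1338 had none. For a symbol with several probe sets the one with the highest mean was used, which left 24241 genes.

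All genes were fitted with limma 3.58.1 in R 4.3.3 (lmFit, eBayes), as verteporfin minus DMSO over 6 arrays, with two-sided tests and Benjamini-Hochberg adjustment over 24241 genes, at a threshold of 0.05. SE is limma's moderated standard error, or, for a log2 ratio of 2 genes, that of the difference of means. Precision is limited by the number of arrays. The fit was run on simulated data with planted effects and independent noise for each gene. Real genes vary together over arrays, so that run does not bear on the error rate here.

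The members, the lists, the pairs and the tests were chosen with earlier results of these data known. Named are the 10 genes, the genes of the 17 pairs, the 4 genes with the smallest adjusted p of each list (2, as values, where none passed) and the 3 nearest profiles of DDIT3, ATF4 and SESN2. Others are marked. List genes without a named probe set were not analysed here. Promoter sequences are RefSeq's (GRCh38.p14), matched by symbol for 10 of 10 genes. Equal replicate numbers were checked by the correlation of deviations from the group means, which showed no pairing. With 3 arrays in each group this check cannot exclude that same-numbered arrays belong together. Alternatives were a replicate block, each array left out, trend and robust variance estimation, a filter on dim genes, the mean over probe sets and a shift of the arrays.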

Additional observations from a re-analysis of the deposited data

How the results depend on the processing

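All 10 genes passed upward under each of the 11 alternatives, not all of which could have changed the calls. With 1 probe set for each of the 10, the mean over probe sets leaves their levels unchanged. The filter on dim genes used the mean over all 6 arrays, which DDIT3, ATF3 and CHAC1 pass only because of their verteporfin arrays. The highest adjusted p (limma) of the 10 genes was 0.0416, for CHAC1 without DMSO replicate 1, followed by 0.0144, for ATF3 without DMSO replicate 2. The log2 difference ranged from 0.56 to 0.85 for CHAC1 and from 1.87 to 2.59 for ATF3. The number of lower genes among the amino acid targets fell from 5 to 3 without DMSO replicate 3 (range 3 to 4 over the arrays left out). That among the CHOP targets and death genes fell from 2 to 1 without DMSO replicate 1 (range 1 to 2). Among the tRNA synthetases it was 2 in place of 1 with trend and robust estimation. The cause was not tested. Changes that had not passed turned sign for CEBPD without DMSO replicate 1 (-0.0195, range to 0.137 over the arrays left out) and for DDIT4L without DMSO replicate 3 (-0.0107, range to 0.108). The replicate block gave 3209 higher and 3150 lower genes, against 3460 and 3456, and the 10 effectors kept their calls. Same-numbered arrays had deviation correlations of -0.0161, -0.109 and -0.0116 over all genes, and 0 of 6 arrays correlated best with their own number. The brighter genes' median differed by 0.000326 between the groups before the shift. All 17 pair differences kept their direction and moved by less than the spread of the ratios with each array left out. The same was found under the block, the mean over probe sets and the shift, which say little here. The block keeps the mean difference, a shift cancels in a ratio, and each effector has 1 probe set. The exact p of the pair differences was 0.25 with sign flips within the replicate block, the smallest that 3 pairs allow, and 0.1 to 0.2 with an array left out. Dim signal limits DDIT3, ATF3 and CHAC1, whose DMSO means lay below the median.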
